A study of Mus musculus with 8 samples.

Results

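The late transcriptional response of hepatocytes to retinoic acid (RA) was measured on the 4 arrays whose sample titles give 24 h, out of 8 arrays in all. They comprise RA-treated v-erbA-transfected AML12 cells and RA-treated AML12 cells, each set against the untreated array of its own line, so that 2 RA arrays stood against 2 untreated arrays in 2 pairs. RA was given at 1 µM, and the sources used here do not say whether untreated cells received vehicle. AML12 is a non-transformed hepatocyte line from a mouse transgenic for human TGF-alpha. v-erbA is the viral counterpart of a thyroid hormone receptor, which no longer responds to hormone and acts as a dominant repressor, also at genes bound by RA receptors. How many transfected clones were used is not given in the sources used here, and an effect of v-erbA cannot be told apart from one of transfection or of a clone. The v-erbA transcript itself is not analysed here. Each line, treatment and time was represented by 1 array, so p-values below measure only the spread between these arrays, which may be technical. The description gives 3 h for 3 of these 4 samples against their own titles; the titles were followed, and the protocol of the RA-treated AML12 sample also gives 24 h. The other 4 arrays hold the same groups at 3 h and were used for the spread and for a comparison of late with early responses.

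RA is the acid form of vitamin A. It binds the RA receptors, which sit with retinoid X receptors on paired hexamers of DNA and switch from repressing to activating their targets when RA is bound. Early targets include the receptor gene Rarb and the RA-degrading enzyme gene Cyp26a1, and the liver is the main store of vitamin A. By the later time, direct targets and genes downstream of them are both read. In bulk RNA, fewer cells of a type and less RNA per cell cannot be told apart.

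The promoters of 4 genes show the element that RA receptors are known to bind and the windows of 2 late responders. Each sequence is the RefSeq window of GRCm38.p6 from 250 bases before to 50 bases after the start of the gene, given 5′ to 3′ on the strand of the gene. Capitals mark 2 hexamers in the same orientation, 5 bases apart, on either strand. Each hexamer could be AGGTCA, which is the consensus half-site, or its variants GGGTCA or else AGTTCA or else GGTTCA. Rarb lies at chr14:16575427-16575726 on the minus strand, with the pair beginning 53 bases before the start, and Cyp26a1 at chr19:37697558-37697857 on the plus strand, with the pair beginning 32 bases before it. Sprr1a, at chr3:92485832-92486131 on the minus strand, and Nr0b2, at chr4:133553126-133553425 on the plus strand, hold no such pair in this window.
Rarb: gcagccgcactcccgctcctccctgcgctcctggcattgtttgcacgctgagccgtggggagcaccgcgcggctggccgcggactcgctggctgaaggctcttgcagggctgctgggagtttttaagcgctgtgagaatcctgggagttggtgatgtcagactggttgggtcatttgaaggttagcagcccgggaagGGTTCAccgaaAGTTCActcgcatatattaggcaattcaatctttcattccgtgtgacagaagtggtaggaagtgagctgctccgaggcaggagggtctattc
Cyp26a1: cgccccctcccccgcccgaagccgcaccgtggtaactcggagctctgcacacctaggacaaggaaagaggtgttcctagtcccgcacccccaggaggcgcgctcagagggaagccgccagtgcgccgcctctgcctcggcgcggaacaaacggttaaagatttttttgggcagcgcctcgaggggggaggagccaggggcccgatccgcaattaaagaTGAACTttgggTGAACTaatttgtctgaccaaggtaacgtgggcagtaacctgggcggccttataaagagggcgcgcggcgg
Sprr1a: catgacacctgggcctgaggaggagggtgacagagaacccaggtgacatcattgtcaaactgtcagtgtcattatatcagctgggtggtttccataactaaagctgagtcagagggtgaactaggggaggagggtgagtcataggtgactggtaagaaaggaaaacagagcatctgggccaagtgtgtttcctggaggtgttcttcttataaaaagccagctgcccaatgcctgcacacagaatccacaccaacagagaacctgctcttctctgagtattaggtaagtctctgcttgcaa
Nr0b2: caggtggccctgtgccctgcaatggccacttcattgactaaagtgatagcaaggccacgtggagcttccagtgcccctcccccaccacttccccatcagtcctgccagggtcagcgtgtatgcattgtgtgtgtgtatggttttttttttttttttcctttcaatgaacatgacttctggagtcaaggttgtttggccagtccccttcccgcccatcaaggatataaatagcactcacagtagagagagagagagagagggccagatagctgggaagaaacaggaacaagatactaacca
Such a pair occurred in 0.0974% of 32851 windows and in 0 of the 25 matched windows among the 28 genes with the largest late changes. Pairs 2 bases apart (0.268% of windows) and 1 base apart (0.222%) were also found in 0 of the 25. A single AGGTCA lay in 16.3% of windows and in 3 of the 25, those of Wfdc3, Ivl and Tdo2. These matches describe letters in a short window and are not evidence of binding or of its absence.

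The cells expressed the hepatocyte markers chosen for this check. Of a longer hepatocyte list used below, Hpd, Cyp2e1, Pck1, Asgr1 and Arg1 were too dim to be tested. All 7 of the chosen markers measured lay above the pooled median signal of 73.5 units on all 4 arrays. Their summed signals were 22781 to 27702 units with RA and 24626 to 33000.1 units without it. All 4 biliary markers did so as well. Of the fibroblast markers 1 of 7 (Acta2), of the macrophage markers 1 of 5 (Csf1r) and of the endothelial markers 1 of 5 (Kdr) lay above it on all 4 arrays, and 4, 4 and 3 of them on none, Pdgfrb, Ptprc and Pecam1 among these. The untreated AML12 array of 24 h stood apart from the other 3. Its mean log2 level was 8.13 over 35 mitosis genes, against 8.79 to 9.08 on the others, and 8.42 over 34 genes of S phase, against 8.67 to 8.96. Over 22 hepatocyte marker genes it was 10.45, against 9.12 to 9.71. This array is the denominator of every AML12 ratio below, and most counts are therefore also given without the AML12 pair.

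RA changed 362 of 12015 genes at 24 h, 3.01% of those tested (limma, Benjamini-Hochberg adjusted p under 0.05, on log2(signal + 19.9)). Of these, 169 rose (1.41%) and 193 fell (1.61%). With arrays centred on their medians the counts were 193 and 158, so which direction had more genes depended on the scaling. The shares of 1.41% and 1.61% are the background for the counts of each gene list below in the fit over all arrays. No list was tested against them. Counts given without the AML12 pair come from another fit, which called more genes in each direction. These shares are not the background for those counts. A larger count in that fit is therefore not by itself specific to a list. All 362 moved the same way in both lines, which the test favours, while 59.6% of all genes did so. Most changes were small: the median size was 0.45 on the log2 scale and the smallest 0.13, and 25 genes changed at least 2-fold on average, 12 higher and 13 lower. In 12 genes each line on its own passed 2-fold, 7 higher and 5 lower. The change was larger in AML12 for 71.8% of the 362, against 65.3% of all genes. Across all genes the log2 ratios of the lines correlated at a Pearson r of 0.37, and genes are not independent replicates. The spread behind the test is how far the lines differed in their ratio at each time, with 2 residual degrees of freedom, and it leaned on the fitted trend of variance with level: without that trend 4 genes passed, Rnase4, Sprr1a, Wfdc3 and Ppp1r3c. On simulated data the share of false calls by this test lay above its nominal rate. Without the AML12 pair 505 genes passed, and without the v-erbA AML12 pair 2168, the spread then resting on the 3 h arrays alone. Without the v-erbA AML12 pair of 3 h 123 passed, and without the AML12 pair of 3 h 137. With signals under the pooled median raised to it, a setting chosen after the data were seen, 108 passed, and 12 of the 28 leading genes lost the call.

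**Figure D1:**
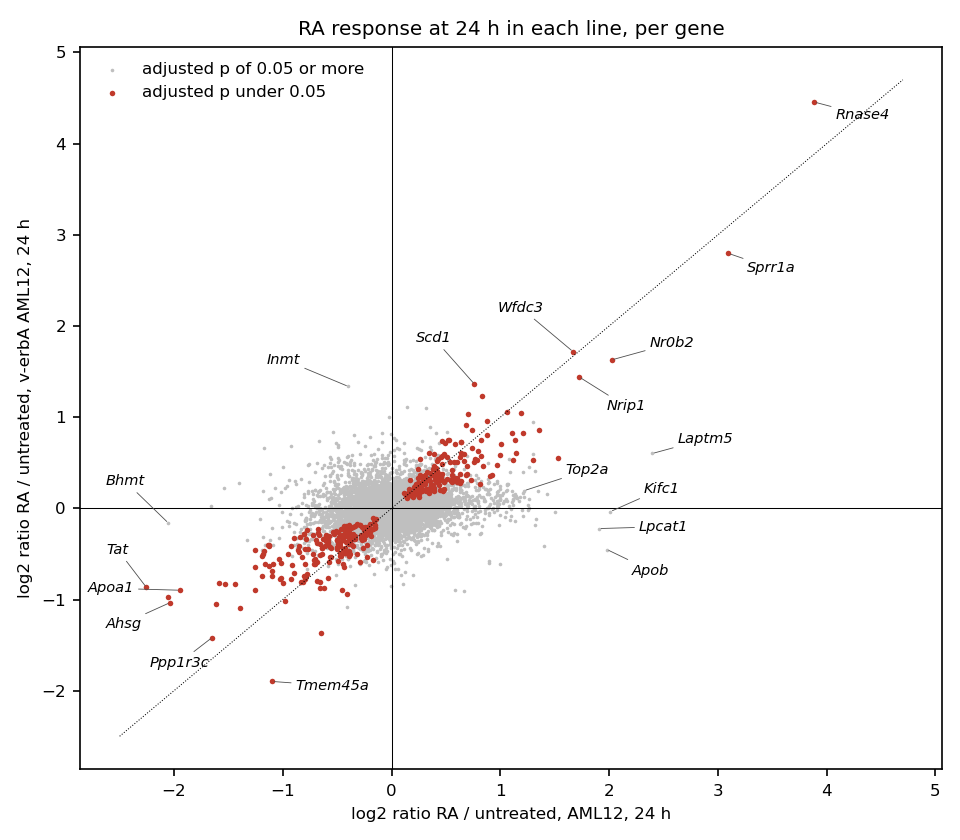
Each point is 1 of the 12015 genes tested, with its log2 ratio of RA over untreated at 24 h in AML12 on the x axis and in v-erbA AML12 on the y axis. Red points passed the threshold in both lines together, the dotted line marks equal ratios, and Rnase4 and Sprr1a lie farthest up in both lines, while genes such as Apob, Kifc1 and Bhmt lie near the x axis.

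The largest fitted difference was that of Rnase4, which encodes a secreted ribonuclease. Its signal was 781 units in v-erbA AML12 with RA and 395 units in AML12 with RA, against 16.6 units in untreated v-erbA AML12 and 8.07 units in untreated AML12. Both RA arrays lay far above both untreated arrays, which were under the pooled median, so that the rise was at least 6.17-fold, a bound below the measured 7.71-fold of Sprr1a, and which of these genes rose more is not settled (log2 difference 4.17 ± 0.15 SE, adjusted p = 3.48e-05). Ang, which shares its locus with Rnase4 in the mouse and was looked up after this value was seen, differed by 0.05 ± 0.17 (adjusted p = 0.924). Its signals of 315 and 298 units with RA overlapped those of 274 and 319 units without it.

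Sprr1a, a small proline-rich precursor of the cornified envelope, the protein shell of squamous epithelia, read 1588 units in v-erbA AML12 and 1673 units in AML12 with RA, against 212 and 178 units in the untreated cells of these lines. It rose by 2.95 ± 0.11 on the log2 scale (adjusted p = 3.48e-05), with 2.80 in v-erbA AML12 and 3.10 in AML12. Ivl, which encodes involucrin, rose by 0.96 ± 0.10 (adjusted p = 0.00517). Its signals were 432 and 135 units with RA, against 235 and 52.0 units without it, so the lines differed in level and each moved up. These were the only members called among 17 tested of a squamous and urothelial list. Its median was -0.06 and its mean 0.20, and 3 rose and 1 fell without the AML12 pair.

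Nr0b2 and Nrip1, both of which act on nuclear receptors, were among the largest rises. Nr0b2 (SHP), an orphan receptor and repressor of bile acid synthesis enzymes, read 148 units in v-erbA AML12 and 798 units in AML12 with RA, against 34.4 and 181 units in untreated cells. The RA array of v-erbA AML12 lay below the untreated array of AML12, so the groups overlapped, yet each line rose against its own control (1.83 ± 0.22, adjusted p = 0.00667). The untreated v-erbA AML12 signal lay under the pooled median. With it raised to that level the ratio of Nr0b2 was 0.85 in v-erbA AML12, against 1.63 as measured. The mean was then 1.44 and the call was lost (limma, adjusted p = 0.267). Nrip1, a corepressor recruited by ligand-bound receptors and an RA receptor target, read 1142 and 1014 units with RA, against 409 and 293 units without it. It rose by 1.58 ± 0.08 (adjusted p = 0.0002) with no overlap, while its 5 other probe sets gave -0.06, 0.09, 0.61, 1.50 and 1.59.

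Of 17 tested genes known to be induced by RA, 4 rose and 0 fell, with a list median of 0.24 against 0.01 for all genes, and 5 rose and 1 fell without the AML12 pair. Beside Nrip1 these were Gprc5b, an orphan G protein-coupled receptor known to be induced by RA (1.12 ± 0.07, adjusted p = 0.000764), the forkhead factor Foxa1 (0.39 ± 0.05, adjusted p = 0.012) and the transglutaminase Tgm2 (0.29 ± 0.05, adjusted p = 0.0201). Tgm2 stood at 4471 and 5623 units with RA, against 3911 and 4285 units without it, and all 4 of its other probe sets lay between 0.25 and 0.31.

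Cyp26a1, which clears RA, read 74.7 and 81.8 units with RA, against 74.2 and 61.6 units without it, near the pooled median on every array. Its difference was 0.16 ± 0.17 (adjusted p = 0.695), and that of its relative Cyp26b1 was 0.28 ± 0.18 (adjusted p = 0.483). Rarb, whose promoter pair is printed above, read 50.2 and 64.2 units with RA, against 45.7 and 24.2 units without it. All 4 values lay under the pooled median, so no fold is given (log2 difference 0.51 ± 0.22, adjusted p = 0.295). The RA carrier Crabp2 read at most 17.2 units on any of the 4 arrays (adjusted p = 0.529). Stra6, the retinol uptake receptor, and Rara, an RA receptor, were too dim to be tested, with signals of at most 36.8 and 71.3 units.

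Among enzymes that make or remove retinaldehyde, the precursor of RA, Rdh10 and Dhrs3 gave differences of like size. Rdh10, which oxidises retinol to retinaldehyde, rose by 0.47 ± 0.07 (adjusted p = 0.0195), with 559 and 318 units with RA, against 383 and 233 units without it. Dhrs3, which reduces retinaldehyde back to retinol, differed by 0.43 ± 0.09 and did not pass (adjusted p = 0.0528). Its signals were 1821 and 1331 units with RA, against 1390.3 and 953 units without it. Within each line the RA array was the higher of the pair for both enzymes. The other probe set of Rdh10 gave 0.22 (limma, adjusted p = 0.349). Bco1, on the same retinoid metabolism list, was not called, with -0.20 in v-erbA AML12 and -1.01 in AML12. The median of that list was -0.02. Of 20 retinoid metabolism genes, 2 rose, Rdh10 and the lipoprotein lipase Lpl (0.65 ± 0.07, adjusted p = 0.00622), and 0 fell (3 and 0 without the AML12 pair). The partner receptor Rxra differed by -0.21 ± 0.10 (adjusted p = 0.331). Of 4 genes tested on its list, the retinoid X receptors Rxra, Rxrb and Rxrg were not called. Only the related orphan receptor Rora passed (-0.33 ± 0.05, adjusted p = 0.0244). The RA receptor genes Rarb and Rarg were counted with the RA-induced genes and were not called.

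The other leading rises were spread over unrelated functions. Wfdc3, of the whey acidic protein family, read 1271 and 1834 units with RA, against 372 and 564 units without it, and rose by 1.69 ± 0.08 (adjusted p = 0.000129) with no overlap. The centromere protein gene Cenpm (1.11 ± 0.13), the flavin monooxygenase Fmo5 (1.06 ± 0.09), the peroxisomal thiolase Acaa1b (1.03 ± 0.12), Crybg1 (1.02 ± 0.13) and Flrt3, a membrane partner of fibroblast growth factor receptors (0.94 ± 0.13), rose with adjusted p of 0.00314 to 0.0131, the last of these without the call when line and time were additive. The casein gene Csn3 rose by 1.04 ± 0.21 (adjusted p = 0.0419), unevenly, with 0.55 in v-erbA AML12 and 1.53 in AML12. Both v-erbA AML12 signals of Csn3 lay under the pooled median, and with these raised to it the ratio in that line was 0. Csn3 also lost the call when either 3 h pair was left out.

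Most genes of lipid synthesis and oxidation were not called. Scd1, the desaturase that makes monounsaturated fatty acids, read 1052 units in v-erbA AML12 and 2831 units in AML12 with RA, against 397 and 1662 units in untreated cells. Each line rose against its own control (1.06 ± 0.12, adjusted p = 0.00657), and the other probe set of Scd1 gave 0.37. Of 23 genes of fatty acid and triglyceride synthesis 5 rose and 0 fell, 4 and 0 without the AML12 pair, among them the elongase Elovl5 (0.47 ± 0.07), the acyl-CoA synthetase Acsl3 (0.41 ± 0.08) and the acetyl-CoA carboxylase Acaca (0.35 ± 0.07; its other probe set gave -0.02). The list median was 0.06, and -0.01 with probe sets averaged, so the list as a whole had no stable direction.

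Ppara, the nuclear receptor that drives fatty acid oxidation, was among the strongest falls. It read 507 and 606 units with RA, against 1044 and 1219 units without it, with no overlap (-0.998 ± 0.10, adjusted p = 0.00386), and its other probe sets gave -0.29 and -1.30. Of 23 genes of PPARA signalling and fatty acid oxidation 4 rose and 2 fell (5 and 3 without the AML12 pair), with a median of -0.06. The thioesterase genes Acot2 (0.70 ± 0.07) and Acot3 (0.64 ± 0.10) and Pdk4, a kinase that restrains pyruvate oxidation (0.63 ± 0.10), rose. Acot genes are close copies of each other, so signals between them may be shared.

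**Figure D2:**
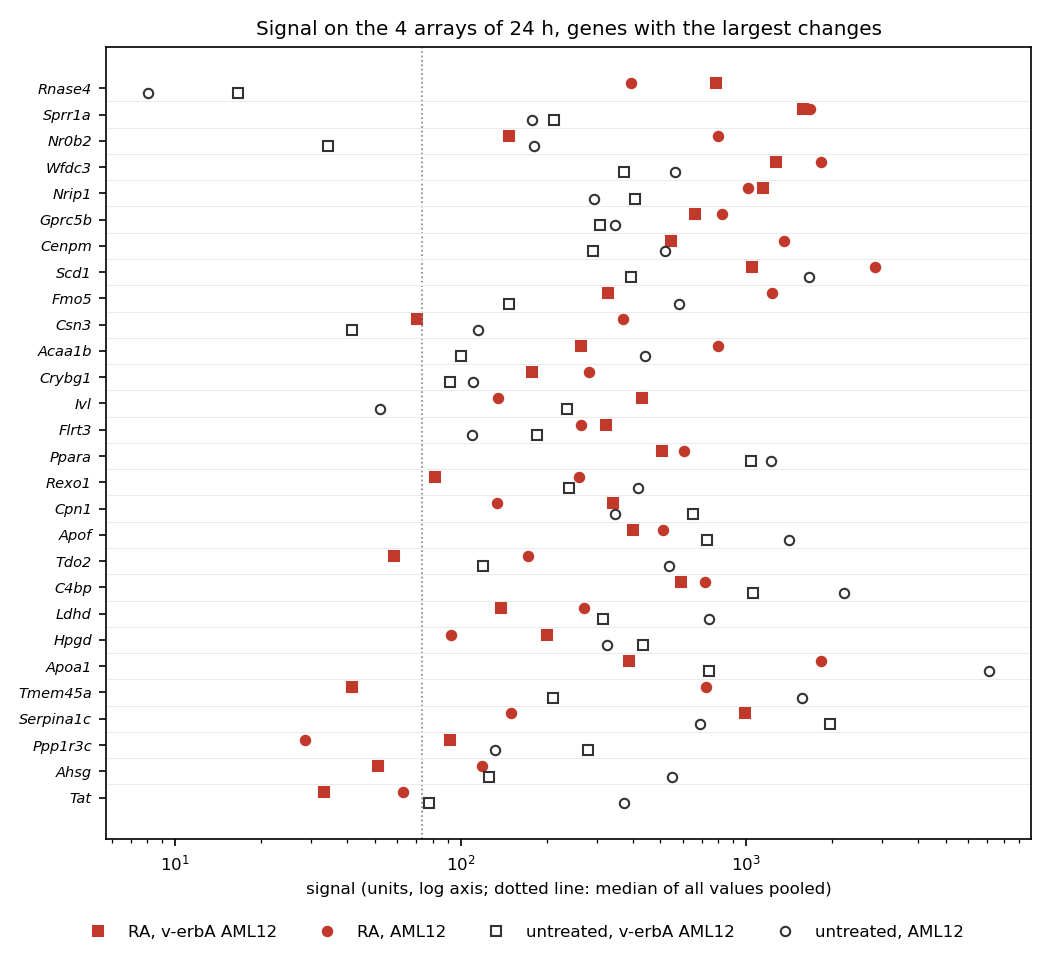
Signals in units on a log axis for the 14 highest and 14 lowest changes, with RA arrays in red and untreated arrays open, squares for v-erbA AML12 and circles for AML12. Rises run from Rnase4 downwards and falls run up from Tat at the bottom; the dotted line is the pooled median of 73.5 units, under which both untreated Rnase4 values and both RA values of Tat lie.

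The 14 strongest falls included 6 genes of secreted liver proteins and 2 of amino acid breakdown. Apoa1, the apolipoprotein that forms high-density lipoprotein, read 389 units in v-erbA AML12 and 1823 units in AML12 with RA, against 742 and 7093 units in untreated cells. Each line was lower with RA (-1.42 ± 0.23, adjusted p = 0.0222), and 3 other probe sets gave -1.39, -1.39 and -1.58, although the call was lost with probe sets averaged (adjusted p = 0.0569). Ahsg, which encodes fetuin-A, read 51.3 and 119 units with RA, against 126 and 550.0 units without it (-1.54 ± 0.22, adjusted p = 0.013). Tat, the tyrosine aminotransferase, had 33.3 and 62.6 units with RA, both under the pooled median, against 77.3 and 374 units without it, a fall of at least 2.09-fold (adjusted p = 0.0351). Tat lost the call with probe sets averaged or with line and time additive (adjusted p of 0.0576 and 0.054). For Apoa1 the log2 ratio was -0.90 in v-erbA AML12 and -1.95 in AML12, and this difference between lines passed the test described further on (adjusted p = 0.00131). The ratios of Ahsg in v-erbA AML12 and of Tat in both lines rest on RA signals under the pooled median. With these raised to it the ratios were -0.64 in v-erbA AML12 and -2.04 in AML12 for Ahsg, and -0.058 and -2.07 for Tat.

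The tryptophan dioxygenase Tdo2 (-1.18 ± 0.17), the complement regulator C4bp (-1.20 ± 0.15), the apolipoprotein Apof (-1.13 ± 0.13), the carboxypeptidase Cpn1 (-1.07 ± 0.10) and the D-lactate dehydrogenase Ldhd (-1.24 ± 0.10) fell as well, with adjusted p of at most 0.0155. The other probe set of Tdo2 gave -0.18 (adjusted p = 0.622), and with probe sets averaged Tdo2 was not called (adjusted p = 0.0838). Serpina1c, a serum protease inhibitor gene, fell by 1.52 ± 0.21 (adjusted p = 0.0131), but it has near-identical copies that may share its signal. Of 22 hepatocyte markers tested 8 fell and 0 rose, with a median of -0.38, and 10 fell and 1 rose without the AML12 pair, where the median was -0.14. Alb, which encodes albumin, read 9408 and 9860.4 units with RA, against 10432 and 11053 units without it. It fell by 0.16 ± 0.02 (adjusted p = 0.0144), a small change at a high level. The fetal marker Afp read 203 and 104 units with RA, against 229.5 and 104 units without it (-0.08 ± 0.11, adjusted p = 0.782).

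Liver transcription factors gave 1 rise and 2 falls among 19 tested, and 1 and 6 without the AML12 pair. Hnf4a, a master regulator of hepatocyte genes, read 1218 and 2009 units with RA, against 1538 and 2559 units without it. Each line was lower by about the same log2 amount, -0.33 in v-erbA AML12 and -0.35 in AML12 (mean -0.34 ± 0.05, adjusted p = 0.0154), and its 3 other probe sets gave -0.27 to -0.52. Foxa3 fell (-0.77 ± 0.15, adjusted p = 0.0417) and Foxa1 rose as given above. Nr1h4, which encodes the bile acid receptor FXR, fell by 0.42 ± 0.05 (adjusted p = 0.00622). Among the bile acid genes counted next, Fgfr4 rose in the probe set used, while its other probe sets gave -0.07, 0.09 and 0.29. Of 19 bile acid genes 3 rose, Nr0b2, the export pump Abcc2 (0.42 ± 0.08) and the receptor Fgfr4 (0.31 ± 0.06), and 1 fell, which was Nr1h4 (4 and 1 without the AML12 pair).

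Genes of prostaglandin clearance and of glycogen handling were also among the falls. Slco2a1, which carries prostaglandins into cells, read 1443 and 1528 units with RA, against 2486 and 3134 units without it (-0.90 ± 0.06, adjusted p = 0.0011). Hpgd, the enzyme that inactivates prostaglandins after uptake, read 201 and 92.3 units with RA, against 436 and 325 units without it (-1.33 ± 0.20, adjusted p = 0.017). For both genes the RA arrays of both lines lay below both untreated arrays. Pla2g6, a phospholipase, rose (0.34 ± 0.07), which made 1 rise and 2 falls among 13 genes of prostaglandin and monoacylglycerol metabolism (2 and 2 without the AML12 pair). The other probe sets of Pla2g6 gave -0.10 and 0.24. Ppp1r3c, which targets a phosphatase to glycogen, read 92.1 and 28.6 units with RA, against 279 and 132 units without it. It fell by 1.53 ± 0.13 (adjusted p = 0.00314; its other probe set gave -0.66), and with Irs1, an insulin receptor substrate (-0.55 ± 0.07), and Ugp2, which makes UDP-glucose (-0.31 ± 0.04), gave 3 falls and 0 rises among 20 glycogen and gluconeogenesis genes (3 and 1 without the AML12 pair).

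Falls outside metabolism included Tmem45a, a membrane protein gene, with 41.7 units in v-erbA AML12 and 721 units in AML12 with RA, against 209.9 and 1564 units without it (-1.50 ± 0.18, adjusted p = 0.00657). Its RA signal in v-erbA AML12 lay under the pooled median, and with this raised to it the mean was -1.20. Rexo1 fell (-1.01 ± 0.18, adjusted p = 0.0338), but its 2 other probe sets gave 0.05 and 0.07, and it was not called with probe sets averaged (adjusted p = 0.204) or with line and time additive (adjusted p = 0.165). Of 23 inflammatory and acute phase genes 3 fell and 0 rose, namely the interleukin antagonist Il1rn (-0.74 ± 0.10), the serum amyloid gene Saa3 (-0.68 ± 0.12) and the orosomucoid Orm1 (-0.44 ± 0.08), and 7 fell and 2 rose without the AML12 pair. Of 19 epithelial junction genes the gap junction gene Gjb1 (-0.97 ± 0.10) and the claudin Cldn2 (-0.68 ± 0.09) fell, and the keratins Krt8 (0.15 ± 0.03) and Krt18 (0.13 ± 0.03) rose; without the AML12 pair 3 fell and 2 rose. Of 26 TGF-beta, BMP and matrix genes 2 rose, among them Smad3, a signal transducer (0.56 ± 0.05), and 3 fell, among them the receptor Tgfbr1 (-0.61 ± 0.05) and the ligand Bmp4 (-0.66 ± 0.12); without the AML12 pair 2 rose and 2 fell. Of 25 immediate early genes 2 rose and 2 fell, the falls being Rgs2 (-0.91 ± 0.08) and Egr1 (-0.53 ± 0.07); without the AML12 pair 2 rose and 4 fell. Sox9, a biliary and progenitor factor, rose by 0.40 ± 0.05, and its other probe sets gave 0.11 and 0.57. It was the only call among 10 tested of the biliary and progenitor list. Of these 10, Nckap1 was matched by synonym to the listed H19 and is a different gene. The median of that list, with Nckap1 included, was -0.07, with 0.01 in v-erbA AML12 and -0.19 in AML12.

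Agreement in direction between probe sets was high for called genes. Of 373 other probe sets of the 362 genes, 348 pointed the same way (93.3%), against 63.7% for genes not called, and in 184 of 206 genes all of them did. For the 28 leading genes 18 of 21 did, the exceptions being Rexo1 and 1 probe set of Nrip1. Fewer passed the threshold: 141 of the 373 did so in the same direction. The median size was 0.31 in the other probe sets and 0.42 in those used.

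The late response was then set against the early one. Of the 362 genes, 285 had the same sign at 3 h, 153 of those that rose and 132 of those that fell, and their median size was 0.45 at 24 h and 0.13 at 3 h. The direct test of 24 h minus 3 h passed for 3 genes, 0.025% of those tested (limma), and 1264 had an unadjusted p under 0.05. Rnase4 had a log2 difference of 4.17 at 24 h and 0.68 at 3 h, with a fitted difference of 3.49 ± 0.22 (adjusted p = 0.00347). The untreated signals behind it were 16.6 and 8.07 units at 24 h and 72.8 and 79.0 units at 3 h; with signals raised to the pooled median the difference was 1.95. Sprr1a gave 2.95 at 24 h and 1.05 at 3 h, a difference of 1.89 ± 0.15 (adjusted p = 0.0138). Slco2a1 gave -0.90 at 24 h and -0.01 at 3 h, a difference of -0.89 ± 0.09 (adjusted p = 0.0305). Without the v-erbA AML12 pair of 3 h the test passed for 0 genes (smallest adjusted p = 0.0592), with 641 at an unadjusted p under 0.05. With signals raised to the pooled median it also passed for 0 genes (smallest adjusted p = 0.321), with 1147 at an unadjusted p under 0.05.

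Among genes that did not pass this test, 2 patterns were visible. Nrip1, Gprc5b, Ivl, Flrt3, Fmo5 and Ppara already differed at 3 h, by 1.77, 1.12, 1.37, 1.13, 1.38 and -0.87. Their values at 24 h were 1.58, 1.12, 0.96, 0.94, 1.06 and -0.998. Nr0b2 was at 1.83 at 24 h and 2.37 at 3 h (difference -0.54 ± 0.30, adjusted p = 0.577), and Dhrs3 at 0.43 at 24 h and 0.91 at 3 h. By contrast Serpina1c, Apoa1, Ahsg, Tmem45a, Cpn1 and Apof were at 0.01, 0.11, 0.31, 0.02, 0.04 and 0.15 at 3 h, and their differences of 24 h minus 3 h were -1.53, -1.53, -1.84, -1.51, -1.12 and -1.29 (adjusted p of 0.0731 to 0.245). A p that misses the threshold does not show that the 2 times were alike.

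The design also asks how v-erbA bears on the RA response. In v-erbA AML12 18 of 11357 bright genes changed at least 2-fold with RA at 24 h (0.158%), 10 higher (0.0881%) and 8 lower (0.0704%). In AML12 126 of 11313 did so (1.11%), 73 higher (0.645%) and 53 lower (0.468%). These counts come from single arrays and carry no test. The SD of the log2 ratios over all genes was 0.184 in v-erbA AML12 and 0.284 in AML12 at 24 h, against 0.155 and 0.195 at 3 h. The largest rises in v-erbA AML12 were Rnase4, Sprr1a, Wfdc3, Nr0b2, Nrip1 and Scd1, and in AML12 Rnase4, Sprr1a, Laptm5, Nr0b2, Kifc1 and Apob. With signals raised to the pooled median, Nr0b2 gave 0.85 in v-erbA AML12. In AML12 the other probe sets of Laptm5 gave -0.08, -0.18 and -0.78, and that of Apob gave -0.54, against the rises of those used. The largest falls in v-erbA AML12 were Tmem45a, Ppp1r3c, Rexo1, Ldhd, Serpina7 and Hpgd, and in AML12 Tat, Serpina1c, Bhmt, Ahsg, Apoa1 and Itih3. Where signals lay under the pooled median the order is uncertain. With these raised to it, Tmem45a gave -1.30, Ppp1r3c -1.42 and Rexo1 -1.37 in v-erbA AML12. The other probe sets of Rexo1 gave 0.002 and 0.009 in that line.

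A direct test of the difference between lines passed for 479 genes (3.99%), with 222 ratios higher in v-erbA AML12 (1.85%) and 257 lower (2.14%). Its spread came from the difference between lines at 3 h alone, with 1 residual degree of freedom, so these p-values carry no replicate of 24 h. In simulated data the share of false calls by this test was above its nominal rate, and with signals raised to the pooled median it passed for 0 genes (1746 at an unadjusted p under 0.05, limma). After centring of the arrays on their medians the counts were 96 higher and 217 lower, so the split depended on the scaling. Of the 479 genes 248 had opposite signs in the lines, in 423 (88.3%) the larger change was in AML12, and 46 were also among the 362.

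Among the 32 gene lists, mitosis had the most genes in this difference. Of 35 mitosis genes, 32 passed the test between lines with a lower RA ratio in v-erbA AML12 than in AML12, and 0 with a higher one. The list median was 0.13 in v-erbA AML12 and 0.99 in AML12. Of 34 S phase genes, 19 passed it with a lower RA ratio in v-erbA AML12 and 0 with a higher one, with medians of 0.10 and 0.53. Top2a, the mitotic topoisomerase, read 1371 and 1547 units with RA in v-erbA AML12 and AML12, against 1197 and 654 units in the untreated cells of these lines. The untreated AML12 array alone was low, as it was for Cenpf (494 and 494 units with RA, against 431 and 182 units without it) and the replication licensing gene Mcm5 (876 and 1027 against 734 and 506 units). The difference between lines was -1.02 ± 0.08 for Top2a (adjusted p = 4.55e-07), -1.16 ± 0.12 for Cenpf (adjusted p = 6.62e-06) and -0.74 ± 0.09 for Mcm5 (adjusted p = 4.58e-05). Both other probe sets of Cenpf pointed the other way, with ratios of -0.098 in v-erbA AML12 and -0.16 in AML12 for one and 0.47 and -0.38 for the other.

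Over both lines the late RA effect itself passed for 1 of 35 mitosis genes, the cyclin Ccna2 (0.54 ± 0.11, adjusted p = 0.0477), and for 0 of 34 S phase genes with limma, although 30 and 21 had an unadjusted p under 0.05. Without the AML12 pair 2 rose in each list. At 3 h the medians were 0.00 in v-erbA AML12 and 0.02 in AML12 for mitosis, and 0.01 and 0.02 for S phase. The part of the untreated AML12 array of 24 h in these values was not tested.

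Hepatocyte markers ran the other way. Of 22 tested, 12 passed the test between lines with an RA ratio higher in v-erbA AML12 than in AML12, and 1 with a lower one. The list median was -0.14 in v-erbA AML12 and -0.72 in AML12. Cyp3a11, a drug-metabolising cytochrome, read 160.2 units in v-erbA AML12 and 285 units in AML12 with RA, against 135 and 867 units in untreated cells (difference 1.76 ± 0.20, adjusted p = 1.44e-05). The methyltransferase Bhmt read 19.8 and 178 units with RA, against 24.5 and 801 units without it (1.89 ± 0.23, adjusted p = 2.67e-05), both v-erbA AML12 values being under the pooled median, so the size is uncertain (2.05 with them raised to it). Itih3, a serum inhibitor chain, read 126 and 239.8 units with RA, against 124 and 803 units without it (1.68 ± 0.18, adjusted p = 9.93e-06). In all 3 genes the untreated AML12 array was the highest of the 4, as it was in the hepatocyte list mean given above.

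Inmt and Apob were also among the genes with the largest differences. Inmt, an amine methyltransferase, had its larger RA ratio in v-erbA AML12, with 928 and 819 units with RA, against 355 and 1086 units without it (1.73 ± 0.12, adjusted p = 6.82e-08). Apob read 318 units in v-erbA AML12 and 2294 units in AML12 with RA, against 442 and 567 units without it (-2.43 ± 0.14, adjusted p = 4.22e-09). Its other probe set had ratios of -0.22 in v-erbA AML12 and -0.54 in AML12, which is the opposite direction. The remaining fitted differences were 1.83 for Nptx1, -2.13 for Lpcat1, -2.05 for the mitotic motor gene Kifc1, -1.82 for Hoxb7 and -1.80 for Laptm5 (adjusted p of 2.67e-05 to 0.0157). Their sizes and order are uncertain, since 3 of the 4 signals of Nptx1, Kifc1 and Laptm5 and 1 of 4 of Lpcat1 and Hoxb7 lay under the pooled median. With these raised to it the differences were 0.23 for Nptx1, -2.07 for Lpcat1, -1.24 for Kifc1, -0.53 for Hoxb7 and -1.56 for Laptm5. Other probe sets numbered 6 for these 10 genes, and 2 of them agreed in direction, and of all other probe sets of the 479 genes 327 of 413 did (79.2%), against 61.3% for genes not called.

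**Figure D3:**
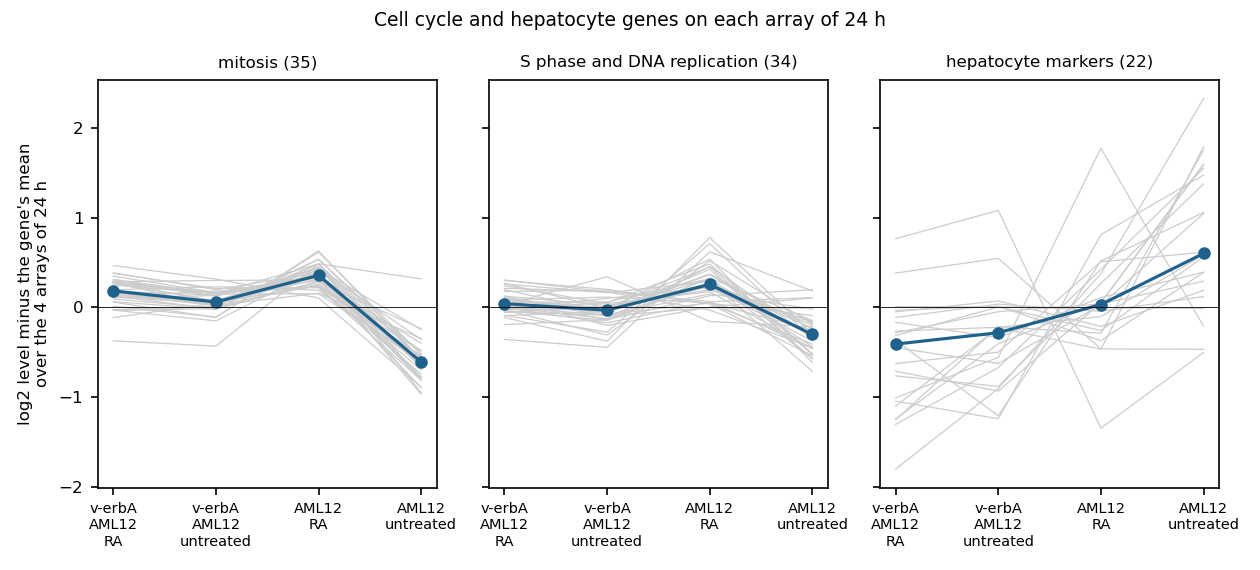
Log2 level of each gene minus its mean over the 4 arrays of 24 h, for mitosis, S phase and hepatocyte genes, with grey lines for genes and blue circles for the list median. The untreated AML12 array is the lowest of the 4 for both cell cycle lists and the highest for hepatocyte markers.

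**Figure D4:**
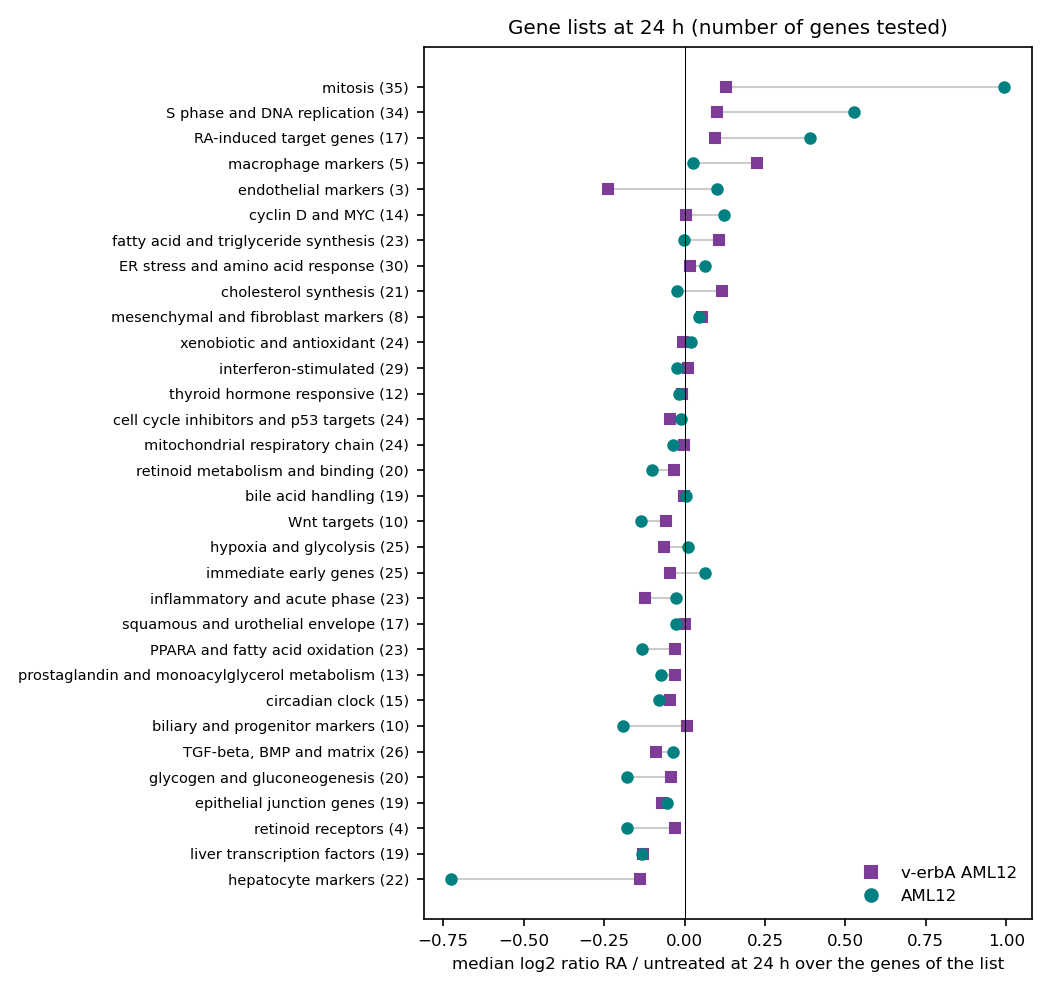
Median log2 ratio of RA over untreated at 24 h for each of 32 gene lists, in v-erbA AML12 (squares) and AML12 (circles), with the number of genes tested in brackets. Mitosis, S phase and hepatocyte lists show the widest gaps between the lines; most other lists lie near 0 in both.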

How the data were processed

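Gene expression was measured on 8 Affymetrix arrays, 1 for each line, treatment and time; biotin-labelled targets were made from total RNA, per the labels' protocols. The authors deposited signal intensity values on a linear scale (0 to 12275 units), 1 for each probe set on an array; how probes were summarised and arrays scaled is not given in the sources used here. Array by array, the median signal ranged from 71.2 to 76.1 units, and no further scaling was applied. Precision is limited by the number of arrays. Line, treatment and time were taken from sample titles.

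Gene names came from the annotation of the platform: of 45037 probe sets, 34944 named 1 gene, 932 several and 9160 none, and 1 had no value. The probe set with the highest mean stood for each of 18192 genes. Genes above the pooled median of 73.5 units on 2 or more of the 8 arrays were tested, which left 12015. Values were log2(signal + 19.9), the offset being the 20th percentile of all values, so changes of dim genes are understated. Where both arrays of the lower group lay under the pooled median, the fold is a bound against that level.

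Tests used limma 3.58.1 (R 4.3.3), with eBayes following a mean-variance trend, and Benjamini-Hochberg adjustment over all genes tested. The fit held line, time, their interaction and RA within each time over all 8 arrays; the estimate at 24 h is the mean of the 2 within-line log2 ratios, and ± is its SE. The difference between lines was fitted with RA at 3 h common to both. The fits were tested on simulated data, where the share of false calls lay above the nominal rate, more so for the difference between lines than for RA at 24 h. Promoters were from RefSeq (GRCm38.p6), and plots used Python 3.11.15 and matplotlib 3.10.9.

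Named genes are the 14 highest and 14 lowest changes past the threshold, up to 8 each way for 24 h minus 3 h, 5 each way between lines, the 6 largest each way in each line, 16 retinoid and liver genes in every case, and up to 4 members of each of 32 gene lists, those past the threshold first. The members and lists were chosen with earlier results of these data known. Synonyms served to match 4 list members. Among these, Nckap1 was taken for H19, Pigq for Gpi1 and Trh for Trf, which are different genes. Nckap1 and Pigq were tested with their lists, and Trh was too dim. Alternatives varied the offset, dim filter, a floor at the pooled median (chosen after the data were seen), scaling, probe set rule, variance trend, arrays and blocks.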

Additional observations from a re-analysis of the deposited data

Results flagged for a closer look

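The RA effect differed between 24 h and 3 h for 3 genes by the direct test, with 24 h minus 3 h at 3.49 for Rnase4, 1.89 for Sprr1a and -0.89 for Slco2a1. The effect at 24 h differed between the lines for 479 genes by a test whose spread comes from the 3 h arrays alone. The genes named for it by size had v-erbA AML12 minus AML12 differences of 1.89 for Bhmt, 1.83 for Nptx1, 1.76 for Cyp3a11, 1.73 for Inmt and 1.68 for Itih3. On the lower side they were -2.43 for Apob, -2.13 for Lpcat1, -2.05 for Kifc1, -1.82 for Hoxb7 and -1.80 for Laptm5. The fitted values of Rnase4, Bhmt, Nptx1, Lpcat1, Kifc1, Hoxb7 and Laptm5 rest in part on signals under the pooled median, so their sizes and order are uncertain.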

How the results depend on the processing

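The 362 genes called for RA at 24 h became 327 to 395 with either other offset, any other dim filter, median centring or quantile normalization. They became 198 with probe sets averaged (187 shared), 4 without the variance trend, 137 without the AML12 pair of 3 h, 123 without the v-erbA AML12 pair of 3 h, 144 with line and time additive, 140 from the 24 h arrays alone with line as a block, 0 without that block (119 at an unadjusted p under 0.05, limma) and 600 over all probe sets. With signals raised to the pooled median, chosen after the data were seen, they became 108 (106 shared), the 3 genes for 24 h minus 3 h became 0 and the 479 between lines became 0; the prior degrees of freedom were then 3.61 for RA at 24 h, against 5.77 as deposited, and 1.01 for the lines, against 18.3. Leaving out 1 pair of 24 h gave 505 to 2168. Of the 28 leading genes 0 changed direction in the fits that gave values for single genes; Csn3 and Tat lost the call without either 3 h pair, 24 lost it without the trend, 12 with signals raised to the pooled median (Nr0b2, Csn3, Flrt3, Tat, Ahsg, Ppp1r3c, Serpina1c, Apoa1, Hpgd, C4bp, Tdo2 and Rexo1), 5 with probe sets averaged and 4 with line and time additive. The 3 genes for 24 h minus 3 h became 5 without a dim filter, 0 without the trend (986 unadjusted), 0 without the v-erbA AML12 pair of 3 h (641 unadjusted) and 154 to 1371 without 1 pair of 24 h. The 479 differences between lines became 313 with centring, 221 with probe sets averaged and 0 without the trend (1306 unadjusted); this test could not be fitted without a 3 h pair. The difference of Laptm5 changed direction with probe sets averaged (0.075). Afp gave -0.16 to 0.00464 for RA at 24 h when 1 pair was left out. The 2-fold genes of AML12 became 79 with the larger offset and 83 with probe sets averaged, and those of v-erbA AML12 became 11 and 10 with these, and 29 with an offset of 1. Each group holds 1 array, so replicates cannot be paired; the 2 arrays of a line and time were paired in each of these fits but the one without that block. Centring moved the median RA effect of all genes to 0.03. In each of these cases the cause was not tested.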
